A study of Mus musculus with 2 samples.

Results

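Accessible chromatin was described at the 8 mouse genes that encode the receptor chains for interleukins 7, 4, 6, 10, 21 and 27: Il7r, Il4ra, Il21r, Il6ra, Il6st, Il27ra, Il10ra and Il10rb. They are 8 of 21938 protein-coding genes of the GENCODE M21 annotation on mm10. A region of the authors' IDR thresholded peak list (IDR, the irreproducible discovery rate) was counted for a gene when it overlapped the gene body. It was also counted when the transcription start site (TSS) nearest to its strongest summit, within 100 kb, was that gene's. This gave 46 of the 26090 merged regions. The cells were activated regulatory T cells of adult male mice aged 4 months, of the cross of Foxp3CreERT2 and Rosa26YFP, and the labels trace them to bone marrow haematopoietic cells. The Foxp3CreERT2 allele places a hormone-inducible Cre recombinase under the Foxp3 gene, and the Rosa26YFP allele is a fluorescent reporter of Cre. The labels name neither the mode of activation nor any inducing agent. Both libraries are technical replicates of biological replicate 1, no other group was measured, and the peak lists hold 1 value for the 2 libraries together. No value therefore has a replicate error, no test was made, and everything below describes these pooled libraries. Genes of the labelled cell type carried regions: 7 of 8 T cell markers and 5 of 6 regulatory T cell markers had a region at a promoter, against 49.1% of all protein-coding genes. Of the other lineages, 3 of 7 B cell markers (Pax5, Ebf1 and Blk, with promoter signals of 10.8, 10.03 and 7.91), 0 of 7 myeloid and 0 of 5 NK cell markers had one, and the B cell count was near that share of all genes. The defining B cell gene Ms4a1 had no region at all, and Klrb1c, an NK cell receptor gene, had 8 distal regions. The part of other cells in the receptor gene regions was not tested.

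ATAC-seq measures how readily a transposase inserts into DNA, which marks promoters and enhancers that are free of nucleosomes. The 8 genes encode type I and type II cytokine receptor chains, which have no kinase activity of their own and signal through JAK kinases and STAT transcription factors. Interleukin-7 maintains resting T cells through STAT5, and regulatory T cells are known for low surface levels of its receptor compared with conventional T cells. Interleukins 6 and 21 act largely through STAT3 and interleukin-4 through STAT6, and the interleukin-10 receptor on mouse regulatory T cells is known to be needed for their control of Th17 inflammation.

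All 8 genes had a region at a promoter, defined as a region within 1000 bp of a TSS of the gene. Among all protein-coding genes 49.1% had one. At least 1 distal region, over 1000 bp from every protein-coding TSS, was found at 7 of the 8 genes, with Il27ra the exception, against 29.2% of all genes. Counting any region by the same rule gave 8 of 8 receptor genes and 58.2% of all genes. With only peaks at an IDR of 0.01 or below, all 8 kept a promoter region, against 45.6% of all genes.

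The number of regions differed widely among the 8 genes. Il6st had 11, Il21r had 8, Il7r and Il10ra had 7 each, Il10rb had 5, Il6ra had 4, Il4ra had 3 and Il27ra had 1. The median was 6, against a median of 1 over all protein-coding genes, of which 99.3% had fewer regions than Il6st and 41.9% had fewer than Il27ra. The bases that lie nearest to a gene's own TSSs, its territory, amounted to 157 kb at Il7r and 112 kb at Il6st. They were 46.9 to 57.5 kb at 5 of the genes and 9.49 kb at Il27ra, where the median protein-coding gene had 45.0 kb. Per 100 kb of territory, counting regions by nearest TSS, Il21r had 14.3 regions, Il10ra 12.2, Il10rb 10.7, Il27ra 10.5, Il6st 8.89, Il4ra 5.36, Il7r 4.47 and Il6ra 1.89. The value was 0.908 over all territories together. The median was 0.4765 over all genes and 3.30 over genes with a region, and Il6ra was below the latter. Il27ra, lowest by count, was thus close to Il10rb by density, and of the 8 genes only Il6ra had a lower density than Il7r.

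**Figure D1:**
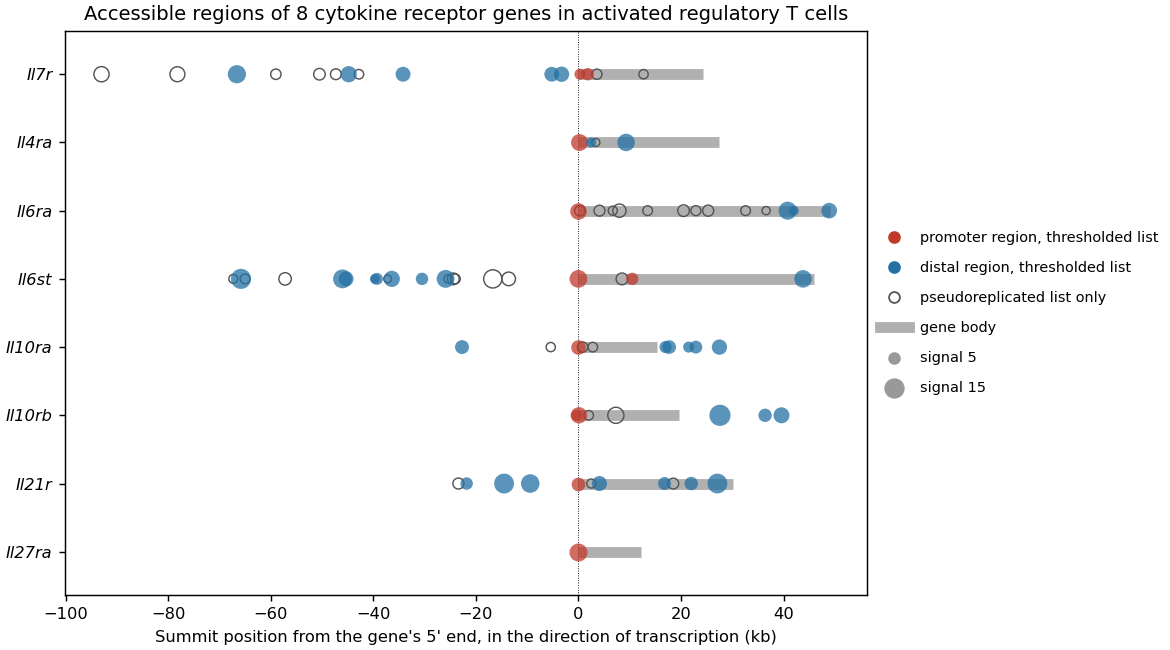
Position of each region's strongest summit relative to the 5' end of its gene, in kb in the direction of transcription, for the 8 genes (rows). Filled circles are the 46 thresholded regions (red at promoters, blue distal), open circles are the 37 regions found in the pseudoreplicated list only, the area of a circle follows its signal value, and grey bars are gene bodies. The distal regions lie mostly upstream at Il7r and Il6st, downstream at Il10ra and Il10rb, and inside the gene at Il4ra and Il6ra.

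Of the 46 regions, 11 were at promoters and 35 were distal. By summit, 7 distal regions lay in an intron of the receptor gene itself, and 3 others in Il6ra and Il6st lay in exonic sequence. The remaining 25 lay outside the receptor gene, of which 17 were upstream of its 5' end and 8 downstream of its 3' end. Of these 25, 16 were in sequence with no annotated gene and 9 were inside another gene. Of the distal regions, 3 lay within 5 kb of the gene's 5' end and 25 lay over 20 kb away. For 5 of the 46 regions the nearest TSS was another gene's: 3 in Il6ra were nearest to She, 1 in Il6st to Il31ra and 1 in Il21r to Gtf3c1. No share over all regions is at hand for these counts by location, distance or nearest TSS. They are therefore not read as a trait of the receptor genes.

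The receptor gene regions had a lower median signal value than all regions. The signal value is the enrichment that the authors' peak caller wrote for each peak, and it was 4.31 to 19.6 over the 46 regions, with a median of 9.86 against 13.6 over all regions. At promoters the 11 regions ran from 5.35 to 14.2, and 0 of 11 exceeded the median of all 11374 promoter regions, which was 15.2. Their median was 9.36. The 35 distal regions had a median of 9.94, against 12.7 for all 14716 distal regions, and 11 of the 35 exceeded that value. By the caller's −log10 p the picture differed: the distal regions had a median of 67.8 against 57.8 for all distal regions, and 23 of the 35 were above it. The promoter regions had a median −log10 p of 74.3 against 125 for all, with 2 of 11 above. In a bulk list, a region open in fewer cells and a region less open in each cell cannot be told apart.

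**Figure D2:**
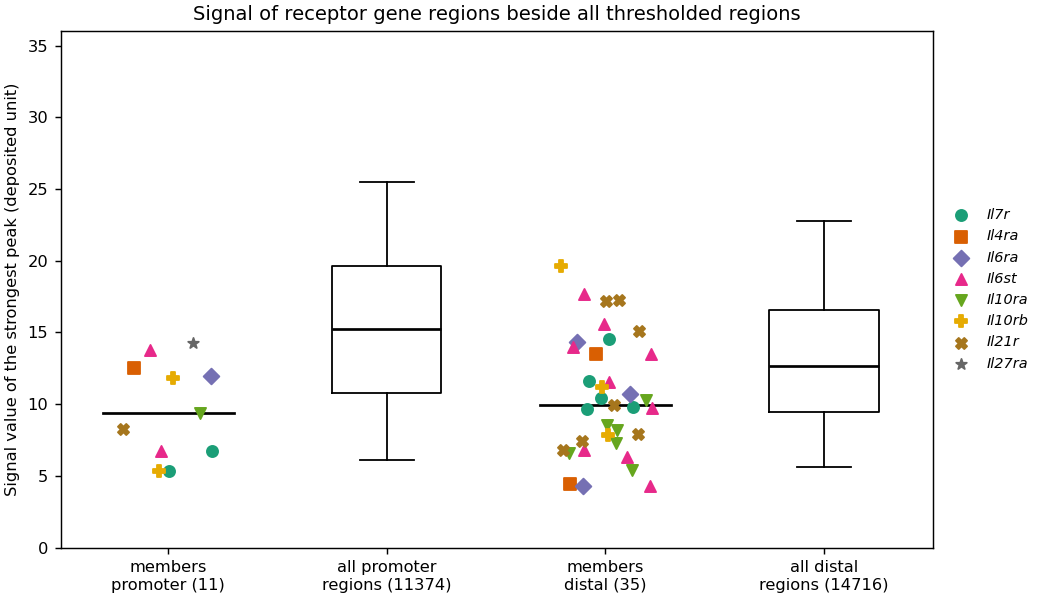
Signal value of each region of the 8 genes (points, marked by gene, jittered sideways) beside all thresholded regions of the same class. Black lines are medians, and boxes and whiskers give the spread of all regions (quartiles, and the range without the outer tails). All 11 promoter points lie below the median of all promoter regions, while the distal points spread from 4.31 to 19.6.

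The promoter regions were also narrower and simpler. Their median width was 486 bp against 825 bp for all promoter regions, and 5 of 11 held more than 1 summit against 72.9% of all. Distal regions stood nearer to the rest, at a median of 489 bp wide against 528 bp, and 7 of 35 had several summits against 37.5% of all.

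In all 7 genes with distal regions, the strongest region by signal was distal. Over all 4473 genes with both a promoter and a distal region, the strongest distal region exceeded the strongest promoter region in 50.8%. Among the 2205 genes with 2 to 9 distal regions, the range of these 7 genes, it did so in 64.8%. By −log10 p it was so in 6 of 7 genes, against 31.6% of all, and Il4ra was the exception. With the limit to the nearest TSS set at 20 kb in place of 100 kb 4 such genes were left, and with regions in the gene body only 3 were left. This comparison was chosen after the values were seen.

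The sequences around the strongest distal summit of each of these 7 genes are shown because they carried more signal than the promoters of the same genes, and a second region of Il21r is added for the pair of motif matches near its summit. Each is the 201 bases centred on the summit, read from the RefSeq copy of GRCm38.p6, the assembly of mm10, on the strand of the gene. Capitals mark matches on either strand to the 19 motif patterns described further on.
Il7r, 66.6 kb upstream, chr15:9596724-9596924 (minus strand): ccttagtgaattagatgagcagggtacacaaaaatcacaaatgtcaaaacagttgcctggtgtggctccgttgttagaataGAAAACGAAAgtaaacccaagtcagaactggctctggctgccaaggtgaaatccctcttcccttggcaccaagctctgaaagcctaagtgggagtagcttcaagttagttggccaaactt
Il4ra, 9.3 kb from the 5′ end, chr7:125561347-125561547 (plus strand): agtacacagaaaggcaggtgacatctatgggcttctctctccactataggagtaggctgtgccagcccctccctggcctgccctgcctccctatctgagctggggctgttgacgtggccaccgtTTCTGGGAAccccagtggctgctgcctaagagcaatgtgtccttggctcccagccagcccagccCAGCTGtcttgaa
Il6ra, 40.8 kb from the 5′ end, chr3:89872321-89872521 (minus strand): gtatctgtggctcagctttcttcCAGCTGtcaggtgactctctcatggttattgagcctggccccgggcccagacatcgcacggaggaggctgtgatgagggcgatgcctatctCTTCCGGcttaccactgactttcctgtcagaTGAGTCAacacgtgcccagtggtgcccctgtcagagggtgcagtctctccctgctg
Il6st, 65.8 kb upstream, chr13:112398209-112398409 (plus strand): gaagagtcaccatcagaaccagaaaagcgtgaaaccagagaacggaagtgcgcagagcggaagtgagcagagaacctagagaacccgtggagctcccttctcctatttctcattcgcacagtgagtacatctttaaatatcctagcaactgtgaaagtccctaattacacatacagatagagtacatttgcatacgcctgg
Il10ra, 27.5 kb from the 5′ end, chr9:45241517-45241717 (minus strand): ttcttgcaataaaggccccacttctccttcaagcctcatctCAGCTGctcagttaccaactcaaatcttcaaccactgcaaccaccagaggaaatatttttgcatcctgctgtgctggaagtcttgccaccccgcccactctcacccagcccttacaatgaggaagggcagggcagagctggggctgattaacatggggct
Il10rb, 27.6 kb from the 5′ end, chr16:91433616-91433816 (plus strand): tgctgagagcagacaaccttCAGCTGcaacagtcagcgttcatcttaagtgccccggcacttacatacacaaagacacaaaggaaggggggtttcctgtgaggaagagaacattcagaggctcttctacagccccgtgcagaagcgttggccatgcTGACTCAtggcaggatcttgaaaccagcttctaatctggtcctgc
Il21r, 14.5 kb upstream, chr7:125588793-125588993 (plus strand): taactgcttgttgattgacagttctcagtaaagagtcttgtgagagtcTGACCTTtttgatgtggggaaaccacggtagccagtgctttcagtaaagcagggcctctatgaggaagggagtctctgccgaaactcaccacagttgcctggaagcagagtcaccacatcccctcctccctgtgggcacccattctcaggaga
Il21r, 21.8 kb upstream, chr7:125581505-125581705 (plus strand): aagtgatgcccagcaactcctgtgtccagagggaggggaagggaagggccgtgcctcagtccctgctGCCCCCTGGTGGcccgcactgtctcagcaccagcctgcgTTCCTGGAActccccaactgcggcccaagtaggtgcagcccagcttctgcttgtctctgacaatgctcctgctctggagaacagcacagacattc

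Il7r, the interleukin-7 receptor alpha chain, pairs with the common gamma chain encoded by Il2rg and also serves in the receptor for TSLP. It lies on chromosome 15 (9505788 to 9530176, minus strand) and had 2 promoter and 5 distal regions, all 5 upstream. The region at the TSSs (9529626 to 9530012) had a signal of 5.36, above 3.16% of all promoter regions, and its summit was 46 bp from the nearest annotated TSS. A stronger region (9527960 to 9528849) had its summit 1395 bp from the nearest TSS, with a signal of 6.76, and both summits lay in intron 1. The distal regions had signals of 10.4 at 3.3 kb upstream, 9.65 at 5.2 kb, 9.78 at 34.2 kb, 11.6 at 44.8 kb and 14.6 at 66.6 kb. Every distal region was thus above both promoter regions. The order by −log10 p was another: the region at 3.3 kb (9533267 to 9533816) was highest with 109, and that at 66.6 kb, inside the neighbouring gene Spef2, had 67.8. A further 8 regions stood only in the pseudoreplicated list, a longer list that the authors deposited beside the thresholded one, among them 1 at 93.0 kb upstream with a signal of 10.1 whose IDR of 0.0555 was close to the threshold of 0.05.

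Il4ra, the chain shared by the receptors for interleukins 4 and 13, and Il21r, the interleukin-21 receptor, lie in tandem on the plus strand of chromosome 7, 23.9 kb apart. Il4ra (125552120 to 125579474) had its promoter region at 125551850 to 125552422 with a signal of 12.5. Its 2 distal regions were both in intron 1, with signals of 4.45 at 2.5 kb and 13.5 at 9.3 kb from the 5' end. Il21r (125603429 to 125633570) had a promoter signal of 8.27 (125603089 to 125603574) and 7 distal regions. Those between the 2 genes had signals of 6.81, 17.3 and 15.1 at 21.8, 14.5 and 9.4 kb upstream of Il21r. Those inside Il21r had 9.94 in intron 1 at 4.1 kb, 7.40 in intron 1 at 16.8 kb, 7.92 in intron 3 at 22 kb and 17.2 in intron 7 at 27.1 kb. The regions at 14.5 kb upstream and in intron 7 thus stood well above the promoter. The 3 intergenic regions were assigned to Il21r because its TSS is the nearer one. That at 21.8 kb starts just past the 3' end of Il4ra, and which gene a region acts on cannot be told from these data.

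Il6ra and Il6st form the interleukin-6 receptor. Il6ra encodes the ligand-binding chain and Il6st encodes gp130, the signalling chain that the receptors for interleukins 6, 11 and 27 and for LIF and oncostatin M share. Il6st (chromosome 13, 112464070 to 112510086, plus strand) had the most regions of the 8 genes. Its main promoter region (112463703 to 112464636) had a signal of 13.8 and 3 summits. A second region near downstream TSSs, in intron 2 at 10.5 kb, had 6.73. Upstream, 8 distal regions lay between 65.8 and 25.9 kb from the gene, at signals of 17.7, 15.6, 9.74, 4.31, 6.33, 11.6, 6.78 and 13.99 in the order of approach. Their −log10 p ran from 31.6 to 210. The thresholded list held none between 25.9 kb and the promoter. The pseudoreplicated list held 5 there, 1 of them at 16.7 kb with a signal of 14.5, for which the IDR was 0.175, its −log10 p being 31.6 in one input and 12.3 in the other. The last Il6st region (112507676 to 112508145, signal 13.5) was in the 3' UTR in the last exon, 43.8 kb from the 5' end, and its nearest TSS was that of Il31ra, a neighbouring receptor gene of the same family.

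Il6ra (chromosome 3, 89864059 to 89913196, minus strand) had a promoter region (89913077 to 89913536) with a signal of 11.96. Its 3 distal regions were all at the far end of the gene. The region in intron 9 (89872194 to 89872686) had a signal of 14.3, and its −log10 p of 232 ranked above those of all other regions of the 8 genes. Beside it, a region over coding exon 10 had a signal of 4.33, and a region in the 3' UTR had 10.7. Between the promoter region and the intron 9 region the thresholded list held nothing. The pseudoreplicated list held 10 regions in that interval, with signals of 2.91 to 7.69, so Il6ra had 4 regions in one list and 14 in the other.

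Il27ra, the interleukin-27 receptor alpha chain that pairs with gp130, had 1 region (chromosome 8, 84042124 to 84043117), at its promoter. Its signal of 14.2 was higher than that of any other promoter region of the 8 genes, its width was 994 bp and it had 3 summits, with signals of 11.5, 14.2 and 2.61. The region reached the edge of Rln3, a gene 0.339 kb upstream, and the pseudoreplicated list added nothing.

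Il10ra encodes the ligand-binding chain of the interleukin-10 receptor, and Il10rb its second chain, which the receptors for interleukin-22 and type III interferons share. Il10ra (chromosome 9, 45253837 to 45269149, minus strand) had a promoter region (45268926 to 45269321) with a signal of 9.36. None of its 6 distal regions lay in the gene. The one upstream had a signal of 8.51 at 22.7 kb. The 5 downstream lay between 17.0 and 27.5 kb from the 5' end, with signals of 6.60, 8.18, 5.40, 7.32 and 10.3, and the 3 farthest were inside the next gene, BC049352. With a median of 8.18, Il10ra regions had the lowest median signal of the genes with more than 1, and 3 of its 7 regions had an IDR of 0.01 or lower.

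Il10rb (chromosome 16, 91406164 to 91425834, plus strand) lies in a cluster of receptor genes, with Ifnar2 ending 0.574 kb upstream and Ifnar1 59.4 kb downstream. Its promoter region (91406027 to 91406943) had a signal of 11.8, and a small region beside it (91405644 to 91405929) had 5.35. Both also overlap Gm21970, a predicted gene. The 3 distal regions lay between Il10rb and Ifnar1, at 27.6, 36.4 and 39.6 kb from the 5' end, with signals of 19.6, 7.81 and 11.2. The first of these (91433378 to 91433894) had the highest signal of the 46 regions, above 87.9% of all distal regions, while the last had the higher −log10 p (143 against 99.4). A region in intron 3 with a signal of 11.4 missed the threshold narrowly, its IDR being 0.0590.

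The promoter regions differed in CpG content. CpG islands, stretches rich in the dinucleotide CG, mark most widely used promoters, whereas many lineage-restricted genes have CpG-poor ones. The observed over expected CpG ratio in the 201 bases around the summit was 1.03 at Il4ra, 1.00 at the main Il6st promoter, 0.926 at Il6ra, 0.753 at the main Il10rb promoter, 0.705 at Il10ra and 0.559 at Il27ra. It was 0.498 at the small Il10rb region, 0.285 at the inner Il6st promoter, 0.263 at Il21r and 0.199 and 0.186 at the 2 Il7r regions. The median was 0.559, against 0.798 for all promoter regions. The 5 regions lowest in CpG were also the 5 lowest in signal, from 5.35 to 8.27, while the other 6 had 9.36 to 14.2. The 35 distal regions had a median ratio of 0.194, against 0.265 for all distal regions, so both Il7r promoter regions were as poor in CpG as a typical distal region of these genes.

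To show this contrast, 150 bases are given for each of 3 receptors that pair with the common gamma chain. They precede the first annotated TSS inside the promoter region, from the same assembly and on the strand of the gene. For Il4ra and Il21r they lie directly before the gene's 5' end. For Il7r that TSS is an inner one, so the stretch lies inside the annotated gene, whose 5' end is at 9530176. Capitals mark CG dinucleotides, of which Il7r had 1, Il4ra 7 and Il21r 3. The GC content of these stretches was 49.3%, 52.7% and 59.3% in the same order. The Il21r stretch thus had the most G and C of the 3 but fewer CG than that of Il4ra.
Il7r promoter, chr15:9529836-9529985 (minus strand): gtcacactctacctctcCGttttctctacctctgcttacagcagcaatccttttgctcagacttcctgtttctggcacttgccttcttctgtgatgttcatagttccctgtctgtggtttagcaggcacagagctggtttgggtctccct
Il4ra promoter, chr7:125551970-125552119 (plus strand): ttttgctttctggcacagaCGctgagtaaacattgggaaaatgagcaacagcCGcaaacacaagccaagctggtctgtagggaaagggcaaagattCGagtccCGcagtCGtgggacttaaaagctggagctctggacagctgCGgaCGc
Il21r promoter, chr7:125603279-125603428 (plus strand): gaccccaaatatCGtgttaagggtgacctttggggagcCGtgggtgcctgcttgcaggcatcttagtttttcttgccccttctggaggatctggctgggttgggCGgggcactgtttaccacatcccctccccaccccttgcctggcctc

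**Figure D3:**
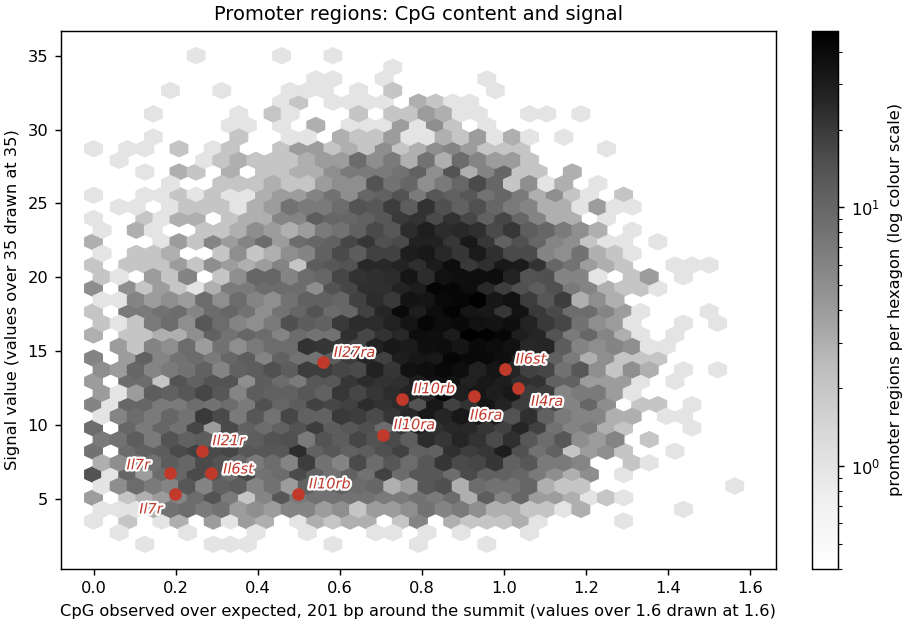
CpG observed over expected ratio in the 201 bp around the summit (x axis) and signal value (y axis, deposited unit) of the 11 promoter regions of the receptor genes (red points), over all 11374 promoter regions (grey hexagons, darker for more regions, log colour scale). The 5 points with the lowest CpG ratio, at Il7r, Il21r, Il6st and Il10rb, lie at signals of 8.27 or lower.

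Summits lay close to the annotated starts. At 7 of the 8 genes the summit of the strongest promoter region was within 50 bp of a TSS, with distances of 1 bp at Il10rb, 19 bp at Il21r, 22 bp at Il27ra, 31 bp at Il10ra, 33 bp at Il6ra, 36 bp at Il6st and 37 bp at Il4ra. This was so for 50.8% of all genes with a promoter region. Il7r was the exception, since its stronger promoter region is the one with its summit 1395 bp from the nearest TSS.

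The IDR compares how peaks rank in 2 inputs, here 2 peak sets whose origin the labels do not state. All 46 regions had an IDR of 0.0311 or lower, and 34 had 0.01 or lower. Each peak has a ranking value in each input, which is read here as −log10 p. The values of the 2 inputs were within 2-fold for 45 of the 46. The exception was the Il7r region 3.3 kb upstream, with 76.2 in one input and 34.2 in the other, a ratio of 2.23. At Il6ra intron 9 the inputs had 129 and 110, and at the Il4ra promoter 68.9 and 73.5. The thresholded list keeps peaks by this same IDR, so closeness of the inputs is in part set by that choice. No share over all regions is at hand for the counts within 2-fold, here or in the next paragraph, or at an IDR of 0.01. These counts are therefore not read as a trait of the receptor genes.

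In the pseudoreplicated list the same loci held 83 regions. The 46 thresholded regions were all among them, and 37 (44.6%) were found there only, against 48.0% of all 50037 regions of that list. By gene, 10 of these were at Il6ra, 10 at Il6st, 8 at Il7r, 3 at Il10ra, 3 at Il21r, 2 at Il10rb, 1 at Il4ra and none at Il27ra. Their median signal was 4.72, below the 9.86 of the 46 regions in both lists, with a median −log10 p of 15.1 against 68.8. The IDR of the 37 ran from 0.0513 to 0.388, and 26 had inputs within 2-fold, with a largest ratio of 4.79. Only 3 of them, at Il6st, Il10rb and Il7r, exceeded the median signal of the 46.

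**Figure D4:**
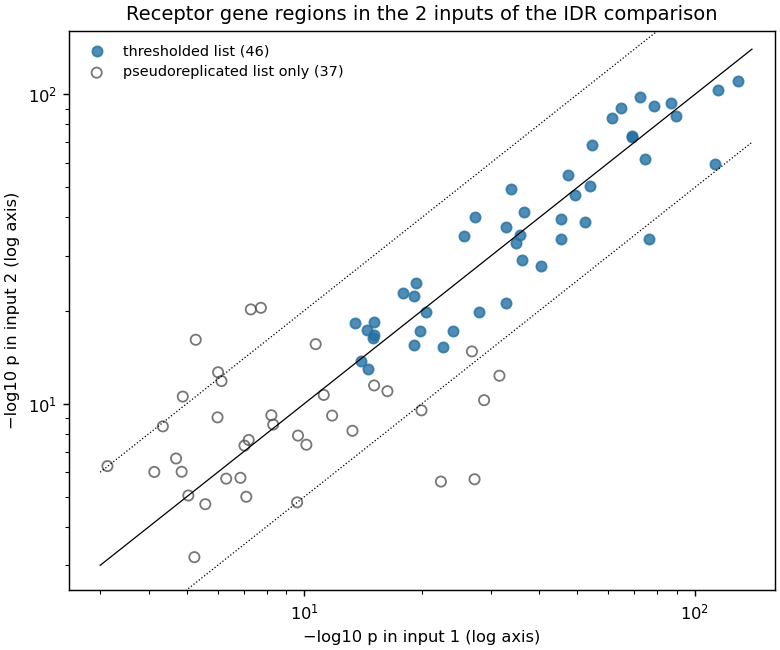
The ranking value, read as −log10 p, of each receptor gene region in input 1 (x axis) and input 2 (y axis) of the IDR comparison. Both axes are log axes, with the 46 thresholded regions filled and the 37 found only in the pseudoreplicated list open. The solid line marks equal values and the dotted lines a 2-fold difference, and 1 filled point, the Il7r region 3.3 kb upstream, lies outside them.

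Motif patterns were searched on both strands in the 201 bases around each summit. ETS factors, which are abundant in lymphocytes, were given the pattern CAGGAAG and a second form that begins with CCGG in place of CAGG. The T cell factors of the RUNX family were given TGTGGTT, AP-1 was given TGANTCA, and the cyclic AMP response element CRE was given TGACGTCA. STAT dimers were given TTCNNNGAA and the same with 1 more free base. The pattern for FOXO factors was GTAAACA, that for the calcium-regulated NFAT factors TGGAAAA, and that for TCF/LEF factors CTTTGAT. Zinc finger factors were covered by CCACNCCC for the KLF family, GGGGCGGGG for the SP family and AGATAA for the GATA family. The E-box was searched as CAGCTG and the nuclear receptor ROR as NAGGTCA. Longer patterns stood for NF-kB, IRF, CTCF and NRF1. At least 1 pattern was found in 37 of the 46 windows. The share over all regions is not given, so this count cannot be read as a trait of these genes. Each match is a description of letters, not of a bound factor.

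STAT factors are the transcription factors that these receptors activate. The STAT pattern with 3 free bases was in 6 of the 35 distal windows (17.1%, 95% Wilson interval 8.10% to 32.7%), against 7.14% of all 14716 distal windows. The form with 4 free bases was in 2 (5.71%), against 5.27% of all. The 6 windows belonged to 4 genes: both intron 1 regions of Il4ra, the regions of Il21r at 21.8 and 9.4 kb upstream, the 3' UTR region of Il6ra and the region of Il6st at 46.0 kb upstream. In the Il21r window at 21.8 kb the STAT match lay 10 bp from the summit and a CTCF match 27 bp on its other side, both in capitals above. The E-box pattern, bound by E proteins in lymphocytes, was in 8 distal windows (22.9%, interval 12.1% to 39.0%), against 13.7% of all. In the Il6ra region over coding exon 10, 1 E-box match overlapped a RUNX match. The ETS pattern CAGGAAG was in 7 of 35, with an interval of 10.04% to 35.9%, against 28.8% of all, RUNX in 5 (14.3%) against 13.9%, and AP-1 in 6 (17.1%) against 13.6%. NFAT, NF-kB, CRE, SP and NRF1 patterns were in 0 of 35, which allows a share of up to 9.89%. In narrower windows of 50 bp each side, the STAT pattern was in 4 distal windows against 3.32% of all, and the E-box in 2 against 6.96% of all, so the E-box share no longer stood above that of all regions. The intervals cover counting error only, and no test was made. Of the 19 intervals only that of the first STAT pattern does not include the share over all distal regions. The intervals were not adjusted for their number, so this 1 case is not read as an enrichment.

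At promoters, the SP pattern was in 3 of 11 windows, those of Il4ra, Il6st and Il27ra (27.3%, against 16.1% of all promoter regions), and the second ETS form was in 0 of 11, against 17.6% of all. FOXO factors are known activators of Il7r. The FOXO pattern was in 2 of the 46 windows (4.35%), near the 3.09% of all 26090 windows. These 2 were the Il7r region 34.2 kb upstream, 9 bp from its summit, and the Il21r promoter, 16 bp from its summit. The window around the summit of the Il7r region 3.3 kb upstream held none of the 19 patterns. This region was the highest of that gene by −log10 p, and its bases outside the window were not searched.

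**Figure D5:**
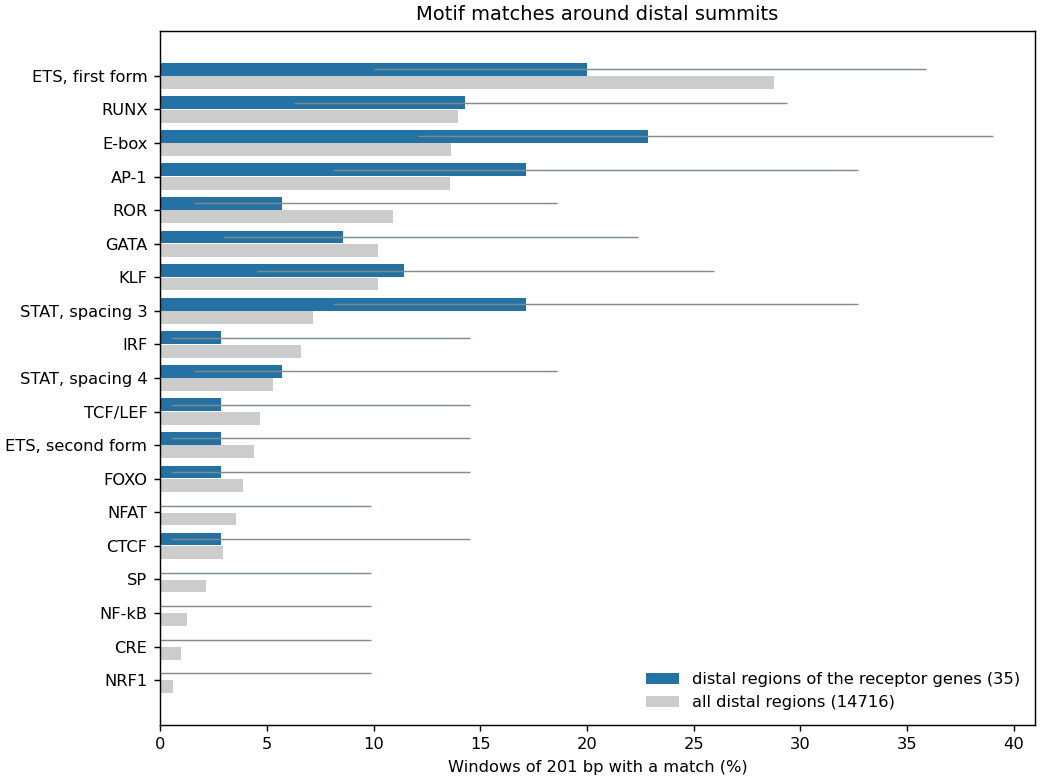
Share of 201 bp windows around distal summits with a match to each of 19 motif patterns (x axis, percent), for the 35 distal regions of the receptor genes (blue, thin lines are 95% Wilson intervals) and all 14716 distal regions (grey). The STAT pattern with a spacing of 3 bases stands at 17.1% against 7.14%, while the first ETS form, CAGGAAG, is the commonest over all distal regions at 28.8%.

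The genes around these receptors in the same pathway were unevenly open. Of 54 genes in the lists of ligands, partner chains, related receptors, JAK kinases, STAT factors and SOCS inhibitors, 30 had a promoter region, against 49.1% of all protein-coding genes. All 4 JAK kinase genes had one, led by Jak1 with 15 regions, Jak2 with 8 and Tyk2 with 3. So did all 7 STAT genes, led by Stat4 with 7, Stat5b with 6 and Stat3 with 5. All 8 genes of the SOCS and CIS inhibitors, which switch cytokine receptors off, had one too, led by Socs1 with 8 regions and Cish and Socs3 with 4 each. The ligand genes were the opposite case in the thresholded list: 0 of 10 had a promoter region, and 3 had distal ones, with 4 at Il10, 2 at Il21 and 1 at Il13. In the pseudoreplicated list 3 of the 10 (Il7, Tslp and Ebi3) had a promoter region. So had 36 of the 54 genes there, against 12211 of all 21938. Il10 encodes a suppressive cytokine that regulatory T cells themselves can make.

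Among receptor chains outside the 8 genes, 2 of 4 partner chains had a promoter region. These were Il2rg, the common gamma chain, with 1 region and a signal of 16.6, and Crlf2, the TSLP receptor chain that pairs with Il7r, with 3 regions and a promoter signal of 8.05. Il13ra1 and Il13ra2, the interleukin-13 receptor chains, had no region. Of the other gamma-chain receptors 3 of 4 had a promoter region, led by Il2ra, the interleukin-2 receptor alpha chain, with 7 regions. The gp130 relatives had 2 of 8, and Il11ra1 had most regions among them with 6. None was at its own promoter: 2 were distal and the rest were at promoters of other genes. The receptors of the interleukin-10 and interferon family had 4 of 9, led by Ifnar1 with 8 regions and Ifngr1 with 7. The median number of regions was 6 at the 8 genes, 5.5 at JAK kinases, 3 at the interleukin-10 and interferon family, 2.5 at the gamma-chain relatives, 2 at STAT and at SOCS genes, 0.5 at the gp130 relatives and at partner chains, 0 at ligands and 1 over all protein-coding genes.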

How the data were processed

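ATAC-seq of activated regulatory T cells was deposited as 3 peak lists on mm10 for 2 technical replicate libraries together, per the file headers and labels. Each list carries the authors' signal value, a score of at most 1000, and −log10 p-values and q-values of each peak. The ranked list adds the authors' −log10 IDR and a ranking value of each peak in 2 inputs. The labels do not state the unit of the ranking value, which was read here as −log10 p. What the signal is relative to, the aligner, the peak caller, the filters and the read depth were not stated in the labels or headers, so no depth-based interval or floor is given for a peak.

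Overlapping peaks of the thresholded list (IDR up to 0.05) were merged where they shared 1 bp or more, and each region took its strongest peak's values and summit. Regions were assigned by gene body or by nearest protein-coding TSS within 100 kb, using GENCODE M21. Motifs, GC and CpG were read from GRCm38.p6. Wilson intervals are at 95%. Merging, the nearest TSS, the promoter window and the motif search were checked on simulated peaks and sequences. Assignment by gene body was not checked in this way. Python 3.11.15, pandas 2.3.3, numpy 2.4.6, scipy 1.17.1, pysam 0.24.0 and matplotlib 3.10.9 were used. The 8 receptor genes are all named, and other genes were named where they share a region with them or as up to 3 examples of a list by number of regions. Other names (single marker and partner genes) were chosen after their values were seen. The genes and lists were chosen with earlier results of these data known. Alternatives tried were the pseudoreplicated list, a stricter IDR, other assignment limits, 1 TSS per gene, summits in place of regions, −log10 p in place of signal and a narrower motif window.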

Additional observations from a re-analysis of the deposited data

How the results depend on the processing

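No paired analysis was possible because the peak lists hold 1 pooled value for both libraries, and for the same reason no replicate could be left out. The 46 regions became 83 in the pseudoreplicated list, 27 with a limit of 20 kb to the nearest TSS and 20 by gene body only. The count of genes with a promoter region stayed at 8 under all 5 alternatives tried. The following alternatives were chosen after seeing the data. The strongest region was distal in 4 genes with the 20 kb limit and in 3 by gene body only, against 7. The first setting removes distant regions outside the gene, and the second removes all regions outside the gene. By −log10 p, 2 promoter regions (Il4ra and Il6st) exceeded the median of all promoter regions, against 0 by signal, and the cause was not tested. Read depth is unknown, so a region missing from a list is not shown to be closed.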
